A study of Mus musculus with 18 samples.

Results

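Cells show fragments of their own proteins on MHC class I molecules at the surface, and 9 genes of the machinery that makes and loads these peptides were followed here: Psmb8, Psmb9, Psmb10, Psme1, Psme2, Tap1, Tap2, Tapbp and Erap1. They were taken by name from the gene tables, and all 9 were found in the sgNAT10 mRNA table (17379 genes), the ribosome footprint table (10974 genes) and the sgMyc mRNA table (28738 genes), which together hold 29538 gene identifiers. The proteasome cuts proteins into peptides. Under interferon, cells replace its catalytic subunits with Psmb8, Psmb9 and Psmb10, which gives the immunoproteasome, and cap it with the activator made of Psme1 and Psme2. The transporter formed by Tap1 and Tap2 then moves peptides into the endoplasmic reticulum, where tapasin (Tapbp) holds empty class I molecules at the transporter and the aminopeptidase Erap1 trims peptides to length. These genes are known as interferon-responsive in many cell types, and tumour cells that lose them can escape CD8 T cells.

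The groups were TC1 cells carrying a guide against Nat10 (sgNAT10) or against Myc (sgMyc), each set against its own unedited wild-type (WT) libraries. TC1 is a mouse tumour line that the labels call fibrosarcoma. The labels name no control guide, treatment, clone number or time after editing, so each edit is compared with unedited cells only, and nothing says that libraries of a group came from separate cultures: p-values then measure the spread between these libraries, which may be technical. Messenger RNA was read in 2 sgNAT10 and 2 WT libraries, and separately in 3 sgMyc and 3 WT libraries. Ribosome footprints, the RNA pieces that translating ribosomes shield from nuclease, were read in 2 sgNAT10 and 2 WT libraries. Precipitated acetylated RNA (acRIP) had 1 precipitate and 1 input for each of sgNAT10 and WT. Nat10 is the enzyme that acetylates cytidine in RNA, and Myc is a transcription factor of cell growth.

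Values are FPKM, a level scaled to gene length and library size, so a comparison between genes within a library relies on the lengths used. Recovered reads summed to between 11290213 and 14769453 per library for sgNAT10-set mRNA and between 1514055 and 3148055 for footprints. These sums are lower limits, since reads were recovered as the smallest whole numbers that match the FPKM ratios of a gene. Counts of the sgMyc set summed to between 51875052 and 65768024. Nat10 mRNA was 3.59 and 3.95 FPKM in sgNAT10, against 5.36 and 5.30 in WT. In the same libraries Myc mRNA was lower too, at 40.0 and 40.9 FPKM in sgNAT10, against 114.9 and 116.7 in WT. Myc mRNA was 21.1, 20.9 and 34.1 FPKM in the sgMyc libraries, against 64.8, 61.6 and 70.8 in WT. The third sgMyc library stood apart. Its correlation with the other two sgMyc libraries was 0.93 (log2(FPKM + 1) over 11907 genes), against 0.995 between sgMyc replicates 1 and 2, and it lay nearer to the WT libraries (0.959 to 0.963). Tests in the sgMyc set are therefore given with and without it. It was singled out by its values, and no label marks it. Leaving it out removes much of the spread between sgMyc libraries, so p-values without it can be far too small. The sgNAT10 and WT mRNA pairs of the sgNAT10 set each differed little beyond counting noise. In the sgNAT10 pair 1.23% of genes, and in the WT pair 0.622%, passed a chi-square limit that counting alone passes in 0.1%. The share was 13.1% to 57.1% in pairs of the sgMyc set, and 21.4% (sgNAT10) and 34.5% (WT) in footprints. Such a share grows with depth, and the sgMyc set was read deeper, so it does not rank the mRNA sets. Outside the sgMyc set it also rests on recovered reads, which can be too few. Correlations were 0.993 to 0.994 between WT libraries of the sgMyc set, against 0.995 (WT) and 0.994 (sgNAT10) in the sgNAT10 set.

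In mRNA, markers of T cells, B cells, epithelium and endothelium were at low levels, and those of macrophages and fibroblasts were higher. In the sgNAT10 set, mRNA values were listed for 0 of 6 T cell, 2 of 6 epithelial and 2 of 4 endothelial markers. Low sums there say little of the markers not listed. In a line that the labels call fibrosarcoma, fibroblast markers need not mark other cells. T cell marker mRNA summed to at most 0.033 FPKM in any library. The 1 B cell marker with a value, Cd79a, had 0.0398 and 0.0425 FPKM in sgNAT10 against 1.49 to 1.85 in its WT. Macrophage markers, of which 3 of 9 had a value in the sgNAT10 set, summed to 12.2 to 13.7 FPKM in sgNAT10 against 5.49 to 5.996 in WT, with Cd14 at 10.7 and 8.75 in sgNAT10, against 2.41 and 2.15 in WT. Of the other measured ones, Csf1r averaged 1.94 FPKM in sgNAT10 against 2.28 in WT and Cd68 1.25 against 1.19, neither called. In the sgMyc set 6 of 9 had a value, with sums of 15.9 to 29.4 in sgMyc against 11.2 to 12.3 in WT. Fibroblast marker mRNA summed to 96.4 to 97.3 FPKM in sgNAT10 against 22.1 to 22.8 in WT, and to 178 to 456 in sgMyc against 120.5 to 138.9 in WT. In sgNAT10, 3 of the 5 tested fibroblast markers were called higher (Col1a2, Thy1 and Pdgfra) and 2 lower (Col3a1 at -0.27 and Pdgfrb at -0.46 on the log2 scale). Col1a1, a defining collagen of fibroblasts, reached at most 0.460 FPKM in any mRNA library. Epithelial markers summed to at most 0.862 FPKM and endothelial ones to at most 0.568 in any mRNA library. In footprints the epithelial markers, 2 of 6 listed, summed to 1.35 and 5.70 FPKM in sgNAT10, against 2.61 and 2.51 in WT. The part of these shifts in the results below was not tested. In such bulk samples fewer cells of a kind and less RNA per cell cannot be told apart.

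Of the 9 genes, 4 lie side by side on mouse chromosome 17 within 34292 bases, in the class II region of the MHC: Psmb9 (34182030 to 34187330), Tap1 (34187556 to 34197225), Psmb8 (34198195 to 34201454) and Tap2 (34204479 to 34216321; RefSeq, GRCm38.p6). Tapbp lies nearby on the same chromosome (33919478 to 33929290). Psme1 (55578494 to 55581527) and Psme2 (55587440 to 55591101) are neighbours on chromosome 14, Psmb10 lies on chromosome 8 (105935728 to 105938392) and Erap1 on chromosome 13 (74639573 to 74693205). Psmb9 and Tap1 point away from each other with 225 bases between them, so both start from 1 short stretch. The RefSeq window from 250 bases before to 50 after the Tap1 start covers it and is shown because these 2 genes were the ones without a lower mRNA level in sgNAT10. The window of Psmb8, their neighbour with a lower level, is shown beside it, together with those of Psme1 and Erap1, which hold an interferon-type element. The Erap1 window belongs to a start site that lies inside the span given for the gene, after its first base. Each is read 5′ to 3′ on the strand of its gene, and capitals mark matches to the motifs searched.
Tap1 (chr17:34187306-34187605, plus strand): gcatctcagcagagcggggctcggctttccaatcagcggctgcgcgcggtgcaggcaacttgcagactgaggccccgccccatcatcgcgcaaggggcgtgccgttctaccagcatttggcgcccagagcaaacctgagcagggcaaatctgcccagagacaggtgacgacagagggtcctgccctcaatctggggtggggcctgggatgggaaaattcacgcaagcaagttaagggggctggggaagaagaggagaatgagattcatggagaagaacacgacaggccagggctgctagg
Psmb8 (chr17:34197945-34198244, plus strand): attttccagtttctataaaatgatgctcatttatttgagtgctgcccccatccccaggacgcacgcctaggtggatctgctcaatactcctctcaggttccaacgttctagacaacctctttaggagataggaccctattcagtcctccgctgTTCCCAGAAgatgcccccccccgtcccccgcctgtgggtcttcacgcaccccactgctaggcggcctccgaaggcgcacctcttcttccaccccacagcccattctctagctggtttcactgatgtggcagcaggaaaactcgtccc
Psme1 (chr14:55578244-55578543, plus strand): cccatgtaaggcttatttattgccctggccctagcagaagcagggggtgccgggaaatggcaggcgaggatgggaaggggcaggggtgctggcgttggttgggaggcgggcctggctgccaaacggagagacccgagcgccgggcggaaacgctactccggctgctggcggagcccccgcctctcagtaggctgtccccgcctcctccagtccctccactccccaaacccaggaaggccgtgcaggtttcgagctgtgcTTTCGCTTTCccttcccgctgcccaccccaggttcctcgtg
Erap1 (chr13:74639603-74639902, plus strand): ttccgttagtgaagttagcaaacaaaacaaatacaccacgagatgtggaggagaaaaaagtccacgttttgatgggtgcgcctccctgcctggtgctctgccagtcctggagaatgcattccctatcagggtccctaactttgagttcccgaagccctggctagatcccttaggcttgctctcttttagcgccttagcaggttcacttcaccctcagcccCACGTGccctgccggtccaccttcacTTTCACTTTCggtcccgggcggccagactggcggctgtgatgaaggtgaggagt

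The motifs were searched on both strands in the 9 windows found for 8 of the 9 genes (2 windows for Psme2). The interferon-stimulated response element, spelled GAAA, any 2 bases, GAAA, was in 2 of 9 windows, those of Psme1 and Erap1, and in 3.44% of all 32851 promoter windows. The gamma-activated site TTCNNNGAA, an element of interferon gamma responses, was in the Psmb8 window and in 8.3% of all windows. The E-box CACGTG, the kind of site Myc binds, was in the Psmb10 and Erap1 windows and in 7.15% of all windows. No 2 of these matches overlap. A match describes letters in a window, not a bound site, and these genes are known to have control elements outside so short a window.

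The first comparison asked how the Nat10 guide changed the mRNA of these genes. Tap2, Psmb10 and Psmb8 were far lower in sgNAT10 than in WT, Tapbp and Erap1 were lower by a smaller factor, and Psme1 and Psme2 were slightly lower. Tap1 was higher, and Psmb9 stayed under 1 FPKM in all 4 libraries, at which it did not enter the test. Of the 8 genes that averaged 1 FPKM or more, which entered the test, 7 fell and 1 rose. Over all 11735 genes tested, 29.6% fell and 33.7% rose in the same test (limma on log2(FPKM + 1), adjusted p under 0.05), so a call alone says little here. The 8 genes had a median log2 fold change of -0.73, beside 0.01 over all genes tested. The sgNAT10 and WT libraries did not overlap, lower, for the 7 genes that fell and for 39.0% of all genes, and, higher, for Tap1 and for 43.3% of all genes.

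Among the catalytic subunits, Psmb8, which brings the chymotrypsin-like activity of the immunoproteasome, had 0.573 and 0.634 FPKM in sgNAT10, against 2.07 and 2.01 in WT. Both edited libraries lay below both WT libraries, on 27 and 28 reads against 124 and 101. Its log2 fold change was -0.92 (SE 0.0786, adjusted p = 0.000408), which the added 1 FPKM shrinks. edgeR on the recovered reads gave -1.77. Psmb10 (MECL-1), which replaces Psmb7 in the immunoproteasome, had 4.73 and 4.33 FPKM in sgNAT10, against 15.1 and 13.4 in WT. The groups stood well apart, with a log2 fold change of -1.46 (SE 0.0728, adjusted p = 7.7e-05). Psmb9, which replaces Psmb6, had 0.777 and 0.982 FPKM in sgNAT10, against 0.711 and 0.744 in WT. With 49 and 58 reads in sgNAT10, against 57 and 50 in WT, it stayed under the level needed for the main test, and edgeR on recovered reads did not call it (log2 fold change 0.26, SE 0.195, adjusted p = 0.246).

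The activator genes moved little. Psme1 (PA28 alpha) had 12.3 and 11.2 FPKM in sgNAT10, against 13.3 and 13.4 in WT, and Psme2 (PA28 beta) had 9.54 and 9.84, against 11.9 and 10.6. The edited libraries of both lay just below the WT libraries, with log2 fold changes of -0.17 (SE 0.0517, adjusted p = 0.0349) and -0.20 (SE 0.0617, adjusted p = 0.0394). These 2 calls were the least stable. That of Psme1 was lost without WT replicate 1, WT replicate 2 or sgNAT10 replicate 2. That of Psme2 was lost without WT replicate 1 or either sgNAT10 library. Both were lost without the variance trend, and that of Psme2 also without the filter on low genes. With edgeR on recovered reads Psme2 was not called either. Its recovered mRNA reads (230 and 172 in WT, 145 and 140 in sgNAT10) were too few by a common factor, so this loss says little. The adjusted p over all settings lay between 0.0118 and 0.121 for Psme1 and between 0.0151 and 0.156 for Psme2. In the authors' deposited table, the adjusted p was 0.159 for Psme1 and 0.167 for Psme2.

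The subunits of the peptide transporter went opposite ways. Tap2 had 0.184 and 0.475 FPKM in sgNAT10, against 3.15 and 3.36 in WT. This rested on 12 and 29 reads in sgNAT10, against 261 and 233 in WT, and no other of the 9 genes had so large a change. The log2 fold change was -1.69 on the scale with 1 FPKM added (SE 0.125, adjusted p = 0.000259), and edgeR on the recovered reads gave -3.32. Tap1 had 4.28 and 4.43 FPKM in sgNAT10, against 2.69 and 3.17 in WT. Both edited libraries lay above both WT libraries (log2 fold change 0.45, SE 0.0768, adjusted p = 0.00493). The ratio of Tap1 to Tap2 within a library, which no scaling of libraries can move, was 23.2 and 9.31 in sgNAT10, against 0.854 and 0.945 in WT.

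Tapbp, the most abundant of the 9 in WT cells of this set, had 9.35 and 9.65 FPKM in sgNAT10, against 16.9 and 17.1 in WT. The pairs were tight and apart (log2 fold change -0.78, SE 0.0381, adjusted p = 7.4e-05). Erap1 had 1.52 and 1.58 FPKM in sgNAT10, against 2.97 and 3.28 in WT. Its edited libraries held about the same fraction of the WT level, 0.487 and 0.507 of the WT mean (log2 fold change -0.69, SE 0.0716, adjusted p = 0.000795). The calls of Psmb8, Psmb10, Tap1, Tap2, Tapbp and Erap1 held with any 1 library left out.

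**Figure D1:**
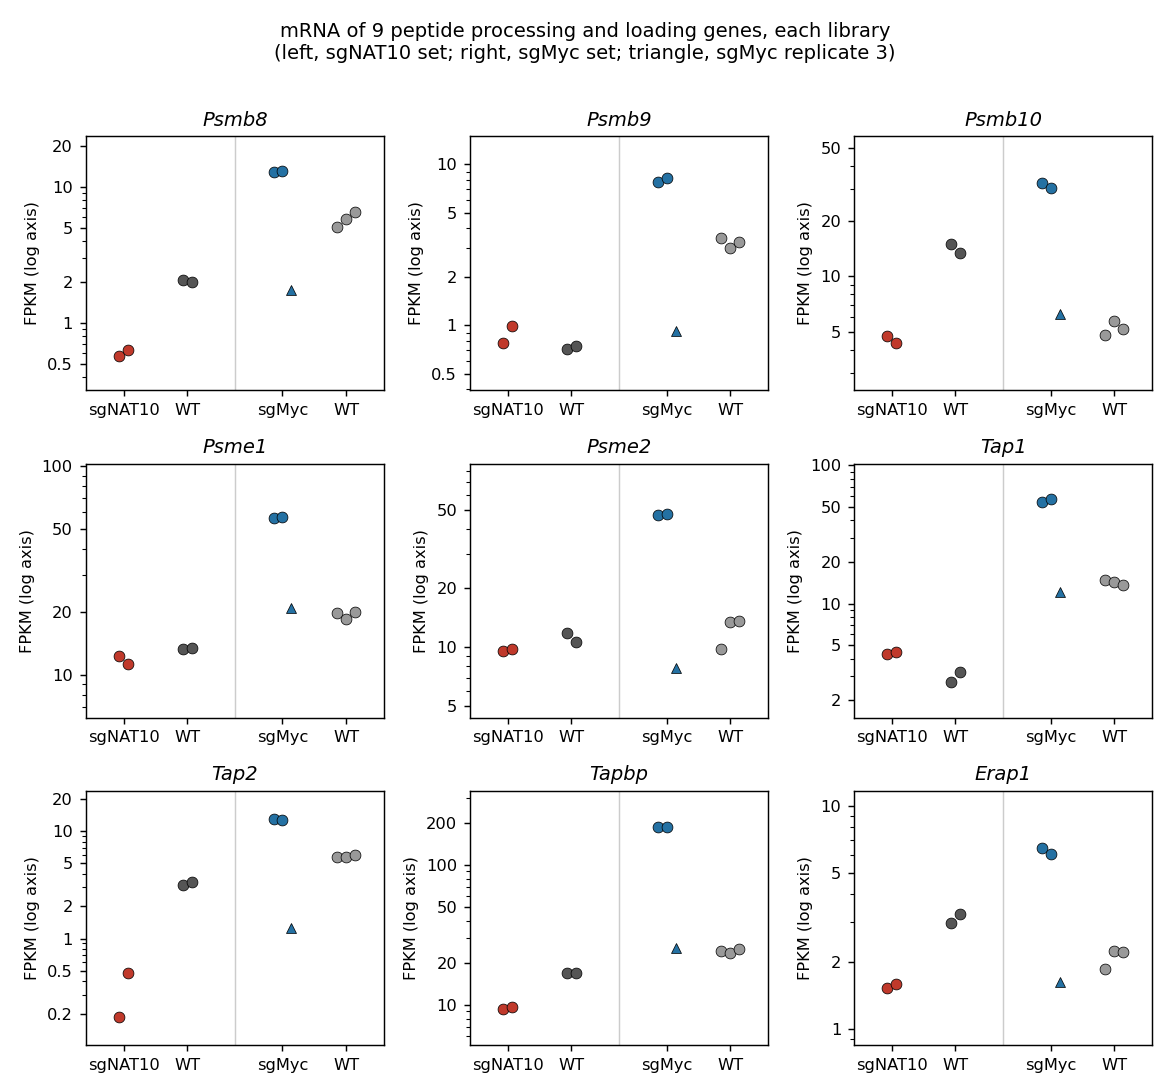
FPKM on log axes of the 9 genes in each mRNA library, with sgNAT10 and its WT at the left of each panel and sgMyc and its WT at the right; each point is 1 library, and the triangle is sgMyc replicate 3. Tap2 was at 0.184 and 0.475 FPKM in sgNAT10, against 3.15 and 3.36 in WT, and Tapbp was at 187 FPKM in sgMyc replicates 1 and 2 and at 25.4 in replicate 3, against 23.5 to 25.3 in WT.

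The constitutive subunits that Psmb8, Psmb9 and Psmb10 replace were more abundant and moved less. Psmb5 had 59.2 and 56.5 FPKM in sgNAT10, against 52.3 and 52.8 in WT (log2 fold change 0.14, adjusted p = 0.0204, not called under median scaling or quantile normalization). Psmb6 had 54.8 and 54.2, against 58.5 and 56.9 in WT (-0.08, adjusted p = 0.0651, called lower under both scalings). Psmb7 had 42.2 and 42.6, against 49.4 and 49.5 in WT (-0.22, adjusted p = 0.00186). Within a library, Psmb8 stood at 0.00967 and 0.0112 of Psmb5 in sgNAT10, against 0.0396 and 0.0381 in WT. For Psmb10 over Psmb7 the ratio was 0.112 and 0.102 in sgNAT10, against 0.306 and 0.271 in WT, and for Psmb9 over Psmb6 it was 0.0142 and 0.0181, against 0.0122 and 0.0131 in WT. Each inducible subunit had less mRNA than its counterpart in all 4 libraries, and both sgNAT10 ratios were below both WT ratios for Psmb8 and Psmb10 and above them for Psmb9.

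The rest of the pathway was counted over lists, where 33.7% of all genes tested rose and 29.6% fell. Of 14 constitutive core subunits 6 rose and 4 fell (2 and 5 under median scaling, 1 and 5 under quantile normalization), led by Psma5 (-0.53, adjusted p = 0.000505) and Psmb1 (0.49, adjusted p = 0.000108). Of 18 genes of the 19S regulatory particle, which feeds ubiquitylated proteins to the core, 6 rose and 7 fell, with Psmd14, its deubiquitylase, at -0.57 (adjusted p = 0.000107) and Psmd3 at -0.42 (adjusted p = 0.000379). Of 8 other activators and assembly factors none rose and 5 fell, among them the nuclear activator Psme3 (54.8 ± 0.951 FPKM in sgNAT10, against 81.6 ± 3.55 in WT, SD, n = 2 each; log2 fold change -0.57, adjusted p = 0.000221) and the assembly chaperone Psmg3 (-0.47, adjusted p = 0.00289). The cytosolic peptidases, which trim or destroy peptides before transport, fell in 6 of 6 tested, most in Blmh (4.53 ± 0.189 FPKM in sgNAT10, against 9.34 ± 0.34 in WT; -0.90, adjusted p = 0.00012) and Thop1 (-0.78, adjusted p = 6.0e-05). Partners of peptide loading in the endoplasmic reticulum gave 1 higher and 2 lower of 6. The oxidoreductase Pdia3 was at 0.28 (adjusted p = 0.000472) and the chaperone Canx at -0.27 (adjusted p = 0.000931). Under median scaling, as under quantile normalization, the 19S genes gave 5 higher and 9 lower. The other activators and assembly factors gave 0 higher and 7 lower under both.

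Among 13 tested regulators of these genes, 4 rose and 3 fell (4 and 5 under either other scaling). The kinase of interferon receptors Jak1 had 56.1 and 55.8 FPKM in sgNAT10, against 22.9 and 24.2 in WT (log2 fold change 1.21, SE 0.0381, adjusted p = 2.4e-05). Irf1, a transcription factor that switches on several of the 9 genes, had 3.55 and 3.65 FPKM in sgNAT10, against 7.08 and 7.59 in WT (-0.86, SE 0.0543, adjusted p = 0.000157). The edited libraries of these genes lay apart from WT in opposite directions. Nlrc5, the class I transactivator, had 4.83 and 4.64 FPKM in sgNAT10, against 4.91 and 4.79 in WT. Its groups overlapped. Nlrc5 was named after its values were seen, as were Stat2, Irf1 and Nlrc5 in the sgMyc set.

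The second comparison asked whether ribosomes on these mRNAs followed. Footprints were lower in both sgNAT10 libraries than in both WT libraries for 7 of the 8 genes averaging 1 FPKM or more, with none higher without overlap. Over the 9707 genes tested, 25.6% did not overlap in the lower direction and 25.6% in the higher. Only Tap2 passed the test across all genes, in which 1.28% of genes fell and 1.81% rose (limma, adjusted p under 0.05). An unadjusted p under 0.05 was found for 4 of the 8 genes and for 2009 of all 9707. The median log2 fold change of the 8 was -1.14, beside -0.00151 over all genes. The footprint pairs spread beyond counting noise, as given above, and 7 of the 8 differences did not pass the test.

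Tap2 footprints were 0.444 and 0.153 FPKM in sgNAT10, against 15.5 and 12.8 in WT. That is 6 and 1 reads, against 185 and 149, and the log2 fold change was -3.55 (SE 0.383, adjusted p = 0.0128). Leaving out any 1 library kept the fold change between -3.71 and -3.39 but left no gene called in the whole table, Tap2 included (adjusted p up to 0.305); edgeR on recovered reads gave -5.35 (adjusted p = 0.000293). Psmb8 had 0.921 and 3.60 FPKM in sgNAT10, against 10.7 and 9.29 in WT, and Psmb10 had 9.04 and 7.48, against 31.1 and 15.3. Neither pair overlapped, and neither passed (Psmb8 -1.88, SE 0.497, adjusted p = 0.115; Psmb10 -1.31, SE 0.377, adjusted p = 0.134). In the authors' deposited table the adjusted p was 0.0134 for Psmb8, 0.0300 for Psmb10 and 0.0091 for Erap1.

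Erap1 footprints were 2.42 and 2.23 FPKM in sgNAT10, against 10.2 and 4.12 in WT (log2 fold change -1.19, adjusted p = 0.237). Tapbp had 18.8 and 16.0, against 23.3 and 26.9 in WT (-0.50, adjusted p = 0.282), and Psme1 had 13.7 and 20.2, against 23.8 and 22.6 (-0.45, adjusted p = 0.398). The WT pair of Erap1 spread more widely than the gap from its lower library to sgNAT10. Psme2 had 1.27 and 1.97 FPKM in sgNAT10, against 8.09 and 2.40 in WT (-1.10, adjusted p = 0.348), from 8 and 6 reads, against 45 and 13. Tap1 had 8.49 and 7.73 in sgNAT10, against 2.37 and 8.51 in WT, so that 1 WT library lay above and 1 below both edited libraries (0.68, SE 0.532, adjusted p = 0.526). Without the low WT library, replicate 1, the log2 fold change of Tap1 was -0.063. Psmb9 had 12 and 1 reads in sgNAT10, against 19 and 6 in WT, and averaged under 1 FPKM, so it was not in the test. Of the pathway lists, 1 gene passed in footprints, Jak1, higher (log2 fold change 1.24, SE 0.168, adjusted p = 0.0241).

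**Figure D2:**
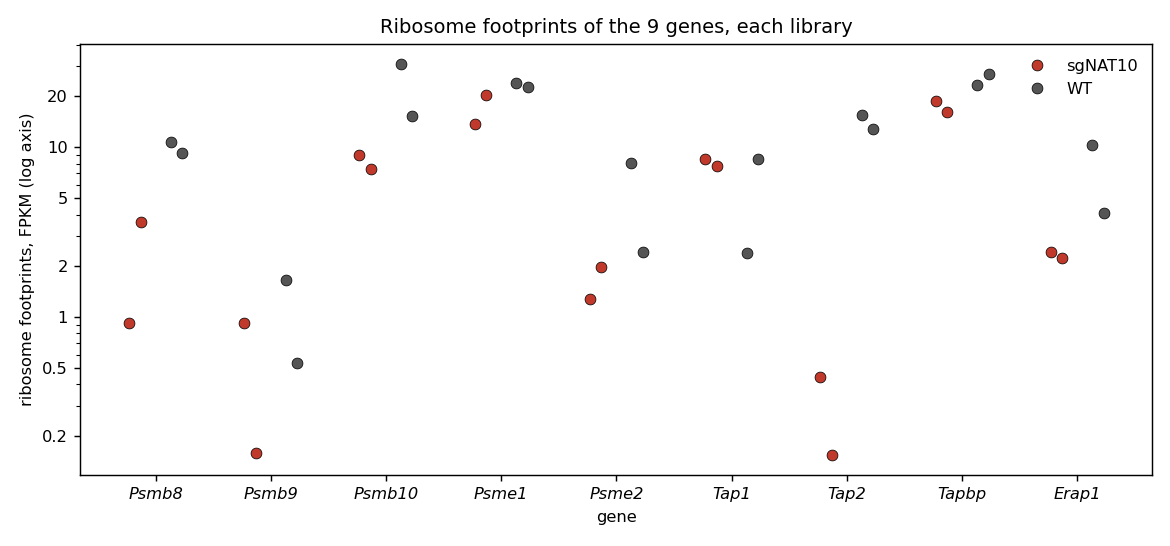
Ribosome footprints in FPKM on a log axis for the 9 genes, with sgNAT10 libraries at the left and WT libraries at the right of each gene; each point is 1 library. Tap2 stands out at 0.444 and 0.153 FPKM in sgNAT10, against 15.5 and 12.8 in WT, while the WT points of Psme2, Tap1 and Erap1 are far apart.

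Translational efficiency, the footprint change beyond the mRNA change, was tested as an interaction in 1 model of both assays. None of the 8 genes passed by limma, where 0.152% of 9200 genes were higher and 0.109% lower. Of the 8, 1 had an unadjusted p under 0.05, as had 1091 of all 9200 genes. That 1 was Tap2, with a log2 interaction of -1.86 (SE 0.32, adjusted p = 0.105). Footprints per mean mRNA of Tap2 were 1.35 and 0.465 in sgNAT10, against 4.77 and 3.95 in WT. The values were apart, yet the sgNAT10 ones rest on 7 reads in all. With any 1 library left out, the Tap2 interaction lay between -2.03 and -1.70. A fit without 1 footprint library leaves 1 in that group, so its spread comes from the other groups, mRNA included. Calls from such fits say little about translation of these genes. With all libraries the interaction of the other 7 genes lay between -0.96 (Psmb8) and 0.27 (Tapbp). That of Psmb8 depended on the added 1 FPKM, and was -0.76 with 0.1 added. Its footprints per mean mRNA overlapped, at 1.53 and 5.97 in sgNAT10, against 5.23 and 4.55 in WT.

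The acRIP peak list held 1 peak in these genes among 1358, in Psmb8 on chromosome 17 from 34199209 to 34199607 (plus strand, mm10), 1014 bases into the gene. The list calls it exonic, in 2 blocks of 172 and 37 bases. Its fold enrichment, the authors' own value, was 10.8, above that of all but 47 peaks and beside a median of 1.77. The log2 difference between genotypes in the list was -3.91 with an FDR of 0.119, and nothing in the table names the genotype on top of that ratio. With 1 library of each kind there is no replicate check, and the mRNA that carries the peak was itself lower in sgNAT10, as given above.

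The third comparison asked how the Myc guide changed the same genes. In sgMyc replicates 1 and 2 all 9 genes stood above all WT libraries, between 2.18 and 7.69 times the WT mean. In replicate 3 they stood between 0.212 and 1.20 times the WT mean, with 3 of 9 above it. With all libraries edgeR called none of the 9, where 7.11% of 16794 genes were higher and 8.86% lower. An unadjusted p under 0.05 was found for 5 of the 9 and for 5207 of all 16794 genes. DESeq2 called 4, Psmb10, Psme1, Tapbp and Erap1, all higher, where 2090 of 28730 genes were higher and 1702 lower. By limma on log2(FPKM + 1) none of the 9 was called, where 753 of 11907 genes were higher and 1082 lower. Without sgMyc replicate 3, edgeR called 9 of 9 higher, where 26.6% of 17485 genes were higher and 26.9% lower. The median log2 fold change of the 9 was 1.19 with all libraries and 1.61 without replicate 3, beside -0.03 and -0.01 over all genes tested. All 3 sgMyc libraries lay above all WT libraries for Psmb10, Psme1 and Tapbp, as for 16.2% of all genes, and none of the 9 was lower without overlap, as 21.7% of all genes were.

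Tapbp had the highest level and the largest change. It had 187, 187 and 25.4 FPKM in sgMyc, against 24.1, 23.5 and 25.3 in WT. The first 2 edited libraries lay far above WT, and the third was within 0.1 FPKM of the highest WT library. The log2 fold change was 2.44 (SE 0.678, adjusted p = 0.0584) and 2.97 without replicate 3 (SE 0.0379, adjusted p = 5.4e-11). Psmb10 had 32.1, 30.2 and 6.26 FPKM in sgMyc, against 4.81, 5.72 and 5.18 in WT (2.11, SE 0.562, adjusted p = 0.0513; 2.60 without replicate 3, adjusted p = 1.9e-08). Again replicate 3 was only just above WT.

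Psmb8 had 13.0, 13.2 and 1.73 FPKM in sgMyc, against 5.13, 5.83 and 6.56 in WT, and Psmb9 had 7.71, 8.26 and 0.924, against 3.48, 3.03 and 3.31. For both, replicates 1 and 2 lay above all WT libraries and replicate 3 below all of them. Their log2 fold changes were 0.65 (adjusted p = 0.559) and 0.76 (adjusted p = 0.514) with all libraries, and 1.19 (adjusted p = 6.5e-06) and 1.31 (adjusted p = 1.6e-06) without replicate 3. Psmb9 was thus measured well here, on 250 to 1935 counts per library, unlike in the sgNAT10 set.

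The activator genes had similar shapes. Psme1 had 56.2, 56.9 and 20.8 FPKM in sgMyc, against 19.7, 18.5 and 20.05 in WT (log2 fold change 1.19, adjusted p = 0.0706; 1.57 without replicate 3, adjusted p = 1.1e-08). Psme2 had 47.7, 48.1 and 7.88, against 9.83, 13.5 and 13.6 in WT (1.48, adjusted p = 0.162; 1.99 without replicate 3, adjusted p = 8.9e-07). Replicate 3 lay just above WT in Psme1 and below it in Psme2.

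Both transporter genes were above WT in sgMyc replicates 1 and 2. Tap1 had 54.1, 57.0 and 12.1 FPKM in sgMyc, against 14.7, 14.2 and 13.6 in WT (1.52, adjusted p = 0.102; 2.00 without replicate 3, SE 0.0408, adjusted p = 1.2e-09). Tap2 had 13.1, 12.8 and 1.24, against 5.80, 5.78 and 6.01 in WT (0.61, adjusted p = 0.628; 1.17 without replicate 3, adjusted p = 2.4e-07). In replicate 3, Tap2 was at 0.212 of the WT mean, the lowest of the 9, next to Psmb9 at 0.282 and Psmb8 at 0.297. The ratio of Tap1 to Tap2 was 4.12, 4.46 and 9.78 in sgMyc, against 2.54, 2.47 and 2.27 in WT, higher in all 3 edited libraries. Erap1 had 6.45, 6.07 and 1.62 FPKM in sgMyc, against 1.86, 2.23 and 2.20 in WT (1.16, adjusted p = 0.154; 1.61 without replicate 3, adjusted p = 5.0e-07).

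**Figure D3:**
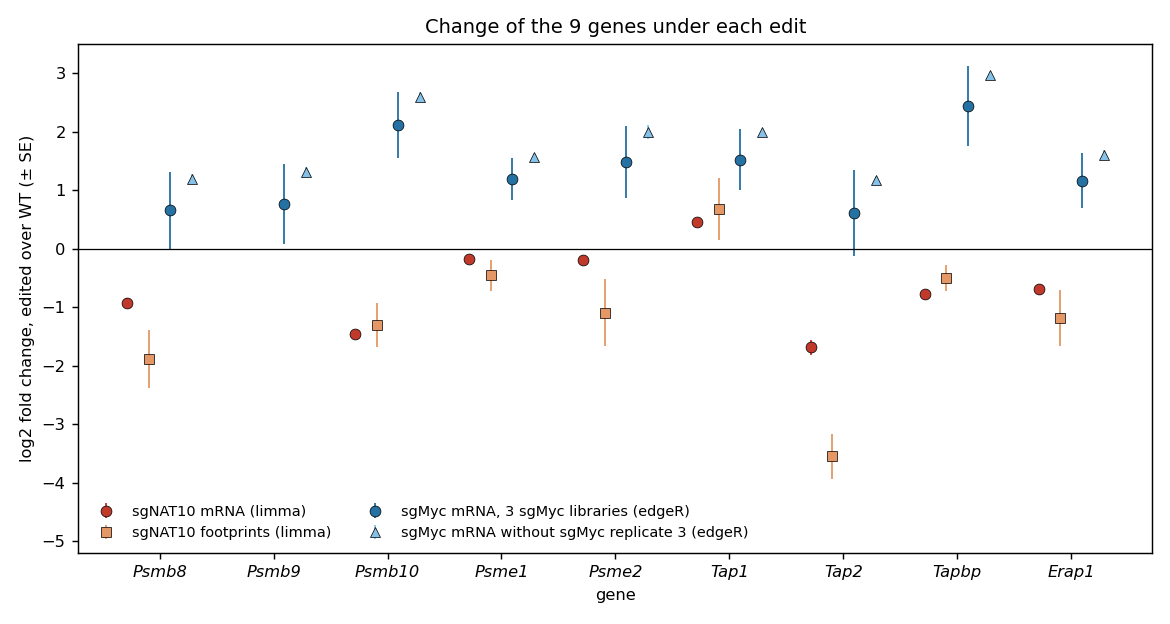
Log2 fold change of each gene, edited over WT, with its standard error, for sgNAT10 mRNA and footprints (limma on log2(FPKM + 1)) and for sgMyc mRNA with and without sgMyc replicate 3 (edgeR); Psmb9 was tested in the sgMyc set only. Without replicate 3 the sgMyc values lie between 1.17 and 2.97, and the sgNAT10 mRNA values lie below 0 except that of Tap1.

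Myc mRNA was lower than in WT in all 3 sgMyc libraries, least in replicate 3, and Nat10 mRNA was 3.52, 3.31 and 6.27 FPKM in sgMyc, against 5.01, 4.86 and 5.13 in WT. What sets replicate 3 apart was not tested, and no label separates it from the other two. The constitutive subunits moved the other way within the group. Psmb5 had 74.5, 72.7 and 119 FPKM in sgMyc, against 88.8, 93.3 and 90.7 in WT, Psmb6 had 39.6, 40.4 and 55.2, against 53.2, 49.3 and 49.7, and Psmb7 had 25.3, 25.6 and 38.8, against 35.5, 36.0 and 37.4. Replicates 1 and 2 lay below all WT libraries and replicate 3 above all of them. Psmb10 stood at 1.27, 1.18 and 0.161 of Psmb7 in sgMyc, against 0.135, 0.159 and 0.138 in WT. In sgMyc replicates 1 and 2 the FPKM of Psmb10 thus exceeded that of its counterpart. Its counts there were lower, at 3554 and 3298, against 5610 and 5593 for Psmb7. A ratio above 1 therefore rests on the gene lengths used for FPKM, which were not checked. For Psmb8 over Psmb5 the ratio was 0.174, 0.181 and 0.0146 in sgMyc, against 0.0577, 0.0624 and 0.0723 in WT, and for Psmb9 over Psmb6 it was 0.195, 0.204 and 0.0167, against 0.0654, 0.0615 and 0.0666.

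**Figure D4:**
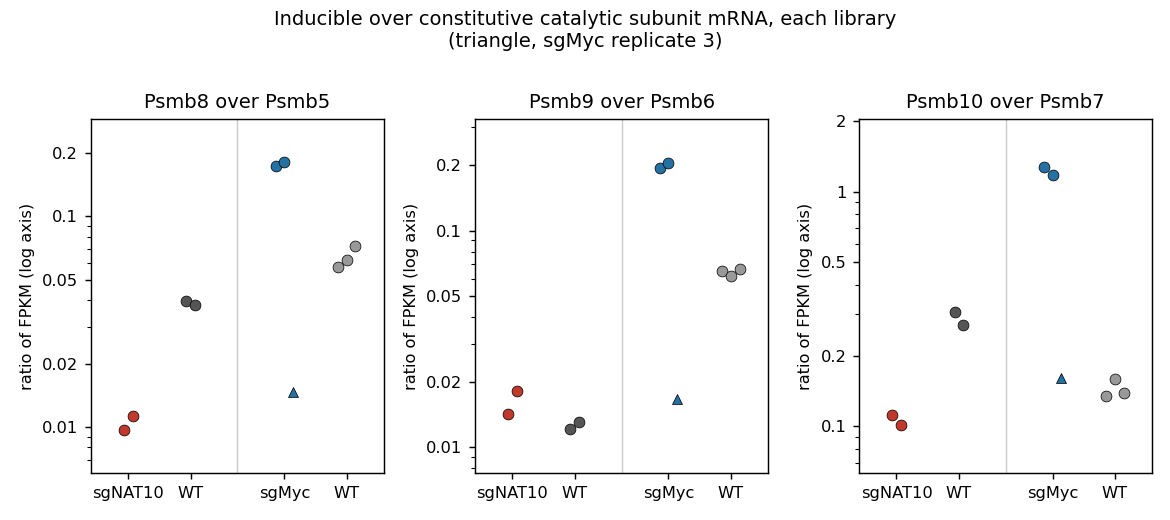
Ratio of FPKM of each inducible catalytic subunit to the constitutive subunit it replaces, on log axes, for each mRNA library; groups run sgNAT10 and its WT, then sgMyc and its WT, and the triangle is sgMyc replicate 3. Psmb10 over Psmb7 reached 1.27 and 1.18 in sgMyc replicates 1 and 2, against 0.135 to 0.159 in WT, and was 0.112 and 0.102 in sgNAT10, against 0.306 and 0.271 in WT.

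The other lists were counted in the sgMyc set in the same way. With all libraries none of 14 constitutive core subunits passed, and 1 of 18 genes of the 19S particle did, Psmd14, lower (20.5 ± 5.72 FPKM in sgMyc, against 34.9 ± 1.07 in WT, SD, n = 3 each; -0.76, adjusted p = 0.0494, not called with DESeq2 size factors; -0.99 without replicate 3, adjusted p = 1.7e-07). Without replicate 3, 1 core subunit was higher and 10 were lower, all 18 genes of the 19S particle were lower, and 5 of 8 other activators and assembly factors were lower, none higher. The peptidases gave 1 higher and 1 lower of 7 with all libraries. They were Lap3, leucine aminopeptidase, with 57.4, 58.4 and 55.9 FPKM in sgMyc, against 40.4, 40.7 and 38.1 in WT (0.53, adjusted p = 0.00484; 0.57 without replicate 3, adjusted p = 1.4e-06), and Npepps at -0.39 (adjusted p = 0.0252; -0.39 without replicate 3, adjusted p = 6.8e-05). Without replicate 3 the peptidases gave 1 higher and 5 lower. Of 7 loading partners in the endoplasmic reticulum none passed with all libraries, and 2 were higher and 3 lower without replicate 3.

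Of 15 regulators tested, 5 rose, none fell and 10 were not called with all libraries, where 7.11% of all genes rose. Without replicate 3, 12 rose and none fell, where 26.6% of all genes rose. Irf9, a transcription factor of the interferon response, had 33.0, 34.3 and 7.51 FPKM in sgMyc, against 2.35, 2.13 and 2.12 in WT (log2 fold change 3.48, SE 0.557, adjusted p = 0.011; 3.96 without replicate 3, adjusted p = 6.1e-11). Here all 3 edited libraries lay above WT, replicate 3 by far less. Stat2, a transcription factor activated by the type I interferon receptor, had 52.8, 53.5 and 5.75 FPKM, against 3.73, 3.60 and 3.55 (3.35, adjusted p = 0.034; 3.90 without replicate 3, adjusted p = 1.4e-11). Irf1 had 18.9, 19.04 and 6.06 FPKM, against 6.87, 6.96 and 6.83 in WT, and Nlrc5 had 28.7, 29.0 and 10.2, against 10.7, 10.1 and 10.9. In replicate 3 Irf1 was below WT and Nlrc5 within it. With all libraries neither passed (Irf1 1.08, adjusted p = 0.123; Nlrc5 1.09, adjusted p = 0.0975), and without replicate 3 both did (Irf1 1.49, adjusted p = 1.4e-08; Nlrc5 1.48, adjusted p = 6.9e-09). Jak1 was the even one, with 75.8, 75.7 and 68.5 FPKM in sgMyc, against 47.6, 47.4 and 44.1 in WT (0.66, adjusted p = 0.00343; 0.74 without replicate 3, adjusted p = 3.2e-07).

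**Figure D5:**
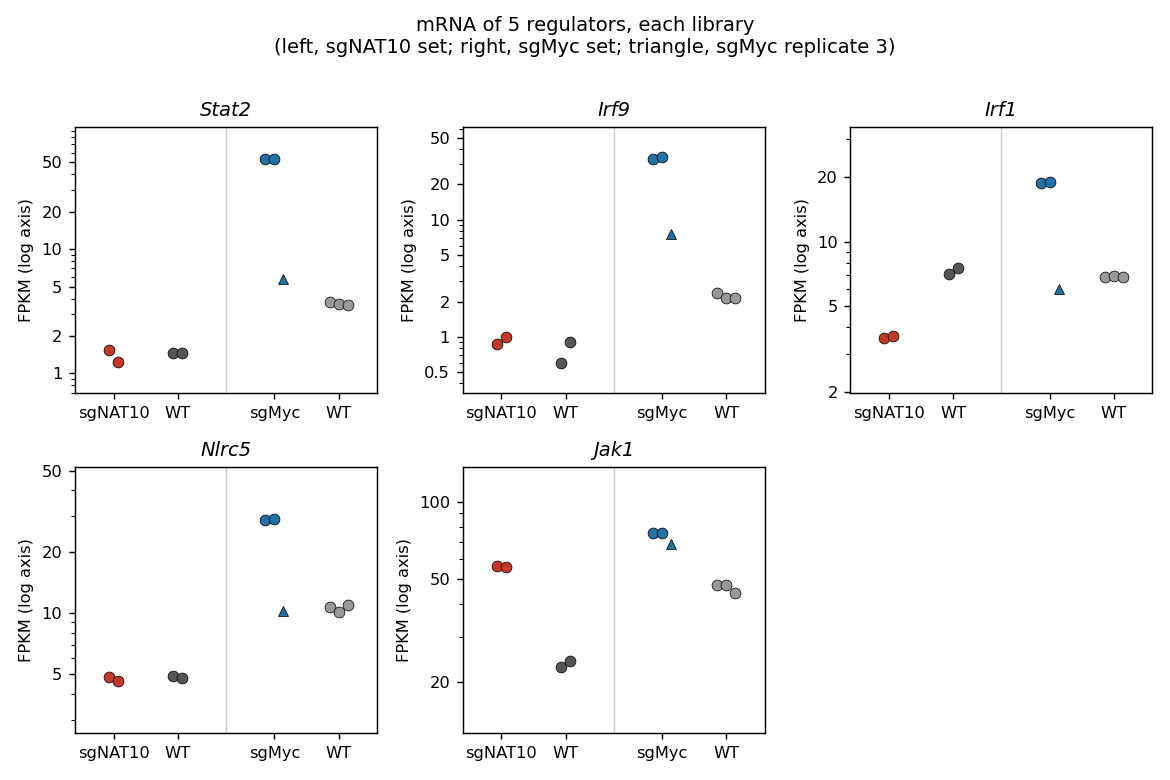
FPKM on log axes of 5 regulators in each mRNA library, arranged as sgNAT10 and its WT, then sgMyc and its WT, with a triangle for sgMyc replicate 3. Irf9 was at 33.0 and 34.3 FPKM in sgMyc replicates 1 and 2 and 7.51 in replicate 3, against 2.12 to 2.35 in WT, and Irf1 was at 3.55 and 3.65 in sgNAT10, against 7.08 and 7.59 in its WT.

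The 2 edits were then set against each other, as the sgMyc effect minus the sgNAT10 effect in 1 limma model of both mRNA sets. The sets share no control libraries, and Myc mRNA was lower than in WT under both edits. Psmb10 passed with all libraries (difference 3.12, SE 0.794, adjusted p = 0.0258), where 6.81% of 9865 genes were higher and 14.4% lower. Its sgMyc log2 fold change was 2.11 and its sgNAT10 one -1.46, each from its own test. Without sgMyc replicate 3 all 8 tested genes passed, higher (differences between 1.45 for Tap1 and 3.83 for Psmb10), where 23.3% of genes were higher and 36.6% lower. Without any 1 of the 4 sgNAT10-set libraries, or of the WT libraries of the sgMyc set, no gene of the 8 passed. Over all genes the calls split into 672 higher and 1423 lower, 831 and 1153 under median scaling, and 951 and 1190 under quantile normalization. Of the pathway lists, Lap3 (0.85, adjusted p = 0.000324) and Blmh (0.62, adjusted p = 0.00405) were higher by this difference, as was Rfxank, a subunit of the RFX complex at MHC promoters (0.43, adjusted p = 0.0117), while Psmb1 (-0.39, adjusted p = 0.0102), Pdia3 (-0.75, adjusted p = 0.00841) and Jak1 (-0.56, adjusted p = 0.00513) were lower. Without sgMyc replicate 3 these 6 were called in the same directions. They were at 0.87 for Lap3, 0.56 for Blmh, 0.47 for Rfxank, -0.42 for Psmb1, -0.86 for Pdia3 and -0.52 for Jak1. A difference need not mean opposite effects. In sgNAT10 and sgMyc, each from its own test with all libraries, Lap3 was at -0.34 and 0.53 and Pdia3 at 0.28 and -0.46. Blmh was at -0.90 and -0.32, Rfxank at -0.44 and -0.01, Psmb1 at 0.49 and 0.10, and Jak1 at 1.21 and 0.66.

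WT levels of the 2 sets stand side by side only, since the tables were normalized separately and levels across them were not tested. Some of the 9 genes were close: Psme2 averaged 11.3 FPKM in WT of the sgNAT10 set and 12.3 in WT of the sgMyc set, Psme1 13.3 and 19.4, Tapbp 17.001 and 24.3, and Erap1 3.12 and 2.10. Tap2 averaged 3.25 and 5.86, and Psmb9 0.728 and 3.27. Psmb10 had 15.1 and 13.4 FPKM in WT of the sgNAT10 set and 4.81 to 5.72 in WT of the sgMyc set. Psmb8 had 2.07 and 2.01 in the first and 5.13 to 6.56 in the second, and Tap1 2.69 and 3.17 in the first and 13.6 to 14.7 in the second. Against Psmb7 within the same library, WT Psmb10 was 0.306 and 0.271 in the first and 0.135 to 0.159 in the second.

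Across the 10 mRNA libraries, with each gene centred on its set, the genes most like the mean of the 9 were Nub1, Nfat5, Col6a1, Tpp1 and Gng2 (Pearson correlations of 0.992 to 0.995, chosen among 5848 genes averaging 5 FPKM or more in both sets). Nub1, an adaptor that brings NEDD8 conjugates to the proteasome, had 8.30 and 8.70 FPKM in sgNAT10, against 11.2 and 11.1 in its WT, and 35.5, 33.9 and 13.4 in sgMyc, against 16.0, 16.6 and 15.4 in its WT. Its levels in sgMyc replicate 3 and in both sgNAT10 libraries were below those of WT, as they were for Psmb8, Psme2, Tap2 and Erap1. These correlations are a description over libraries that share edits and, within a set, WT controls.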

How the data were processed

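The 9 genes, the pathway lists and the tests were chosen with earlier results of these data known. Per the submitters' processing notes, FastQC, Trim Galore, Bowtie2 and featureCounts were used with mm10, with no versions. Per the file headers, the deposited sgNAT10 mRNA and footprint tables hold FPKM with the authors' log2 fold change and p-values, and the sgMyc table holds a count and FPKM per library. The deposited acRIP list gives, for each peak, a fold enrichment, a log2 difference between genotypes and scores that its header names as log10 p-values or FDR.

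FPKM plus 1 was log2-transformed and tested with limma 3.58.1 (R 4.3.3, variance trend) where the mean reached 1 FPKM, with translational efficiency and the difference between the edits as interactions. That model gives each gene 1 spread for both assays. sgMyc counts were tested with edgeR 4.0.16 (filterByExpr, TMM, quasi-likelihood); its standard errors were worked back from the F test. Benjamini-Hochberg adjustment ran over all genes tested, with calls at 0.05. Reads were recovered per gene as the smallest whole numbers that match the FPKM ratios, to within 1e-09. Such numbers were found in 99.84% of genes for mRNA and 98.61% for footprints. Where the true counts of a gene share a common factor, its recovered reads are too few by that factor. An alternative, edgeR on these reads, called 9246 and 777 genes. DESeq2 1.42.0, other pseudocounts, filters and scalings, a replicate block and leaving out each library were further alternatives. Where that left 1 library in a group, it was assumed to vary like the other. The edgeR, limma and limma interaction fits were tested on simulated data, and the recovery of reads was not.

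Named genes are the 9, the counterparts Psmb5, Psmb6 and Psmb7, and up to 2 genes of each list with the largest change past the test, the 5 genes most like the mean of the 9, Nat10, Myc and any acRIP peak of the 9. A regulator that this rule also names is not reported here. Deviations of same-numbered libraries correlated between -0.018 and 0.0245, under the 0.1 set for pairing, so the numbers were not read as pairs. Of the 9 genes, 8 matched the RefSeq promoter table (GRCm38.p6) by symbol; Tap2 did not.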

Additional observations from a re-analysis of the deposited data

Results flagged for a closer look

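Psmb10 was picked out because the 2 edits differed by the interaction test itself. The sgMyc effect minus the sgNAT10 effect on its mRNA was 3.12 on the log2 scale (SE 0.794, adjusted p = 0.0258 by limma). It had 32.1, 30.2 and 6.26 FPKM in sgMyc, against 4.81, 5.72 and 5.18 in WT of that set, and 4.73 and 4.33 in sgNAT10, against 15.1 and 13.4 in its WT. The sgMyc libraries were higher in 3 of 3 and the sgNAT10 libraries lower in 2 of 2. All genes lay apart in the same way in 16.2% (sgMyc, higher) and 39.0% (sgNAT10, lower). Psmb10 was picked on these same libraries, so their direction is no further support. Leaving out single libraries gave differences between 2.74 and 3.83 with adjusted p up to 0.0923. In sgMyc replicate 3, which stood apart in many genes, Psmb10 was at 1.20 times the WT mean; the part of that library in the difference was not tested beyond leaving it out.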

How the results depend on the processing

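In sgNAT10 mRNA, 8 of the genes passed, 4 with a minimum mean of 5 FPKM, which tests only 4 of them, and 6 to 7 with single libraries left out. In footprints 1 passed and 0 did without any 1 library. There, Tap1 ran from -0.063, reversed, without WT replicate 1 to 1.43 without WT replicate 2. In translational efficiency 0 passed, and 0 to 4 with single libraries left out. Tap1 ran from -0.51 to 0.98 and Erap1 from -1.07 to 0.069, both reversed without footprint WT replicate 1, and Psmb10 from -0.34, reversed, without footprint WT replicate 2, to 0.64. The cause was not tested. In the sgMyc set 0 passed, 4 by DESeq2, and 0 to 9 with single libraries left out (9 without sgMyc replicate 3). In the difference between the edits 1 passed, and 0 to 8 with single libraries left out (8 without sgMyc replicate 3). No other change of the 9 genes turned sign under the alternatives run.

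With a replicate block 8, 1, 0, 0 and 1 of the genes passed in sgNAT10 mRNA, footprints, translational efficiency, the sgMyc set and the difference. Over all genes, calls moved by more than 1.5 times in footprints (300; 87 without the variance trend, 777 by edgeR on recovered reads, 0 without any 1 library), in translational efficiency (24; 4 with the replicate block, 3 to 650 with single libraries left out), in the sgMyc set (2682; 1082 with the block, 680 to 9368 with single libraries left out) and in the difference (2095; 1227 with the block, 1110 to 5907 with single libraries left out). Footprints of Psmb9 rest on 12 and 1 reads in sgNAT10, against 19 and 6 in WT, and those of Tap2 in sgNAT10 on 6 and 1.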
